A study of Mus musculus with 550 samples.

Results

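Dimethyl fumarate (DMF) given alone at 100 mg/kg was compared with monoethyl fumarate (MEF) salts given alone at 79.2 mg/kg in the mesenteric lymph node (MLN) of C57BL/6 mice. The members were the 32 MLN arrays whose titles name DMF100 or MEF79_2 alone, among 88 MLN arrays and 550 arrays in the series. There were 8 mice in each of 4 groups: DMF at 6 h, DMF at 12 h, MEF at 6 h and MEF at 12 h. Each mouse had received a single dose and gave 1 MLN array. DMF is the dimethyl ester of fumaric acid and MEF its monoethyl ester, here a mixture of calcium, magnesium and zinc salts. Mice given the vehicle, 0.8% hydroxypropyl methylcellulose (8 per time), serve below as the background. Compound, counter-ion and dose in mg/kg differ together between the groups, so they cannot be told apart. Another set of 8 mice per time received 179.2 mg/kg DMF, and a further set is titled DMF100 with MEF79_2, although its source names give DMF alone. The difference, DMF minus MEF, was taken within 6 h and within 12 h and averaged over both times, for 17097 genes by 1 probe set each.

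Fumaric acid esters are electrophiles that react with cysteines of KEAP1, the protein that marks the transcription factor NRF2 for degradation. NRF2 then accumulates and switches on genes for quinone reduction, glutathione and thioredoxin metabolism, iron and heme handling. Cysteine-reactive compounds are also known to set off the heat shock response, in which HSF1 raises chaperone genes. The mesenteric node drains the gut and holds mainly B and T lymphocytes in a frame of reticular stroma, lymphatic endothelium and macrophages, embedded in fat.

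The arrays carried the profile of a lymph node within fat. On the 32 arrays the B cell gene Cd79a lay at 10.78 to 11.85 log2 and the T cell gene Cd3e at 11.11 to 11.96. Villin (Vil1), of gut epithelium, lay at 2.12 to 2.68, near the floor of 2.12 log2 at 6 h and 2.19 at 12 h, whereas the fat hormone gene Adipoq lay at 10.33 to 12.50. In bulk tissue, fewer cells of a type and less RNA per cell cannot be told apart. The labels number the animals and say no more of how they were kept, so p-values measure the spread between these mice. Among the 32 arrays, 2 stood apart. The 12 h MEF array of replicate 25 had a mean of 10.30 over 7 pancreatic acinar markers, against 2.56 to 2.75 in the other 7 of its group. The 6 h DMF array of replicate 60 had 4.32 for those markers (others 2.68 to 2.76), 11.19 for 6 adipocyte markers (8.80 to 10.48) and 5.93 for 4 erythroid markers (4.11 to 4.78). Animal numbers run in sets of 12 per time. DMF mice held places 1 to 4 and 9 to 12 of these, and MEF mice places 1 to 8, so the groups share only places 1 to 4. Vehicle mice held places 1 to 8, as MEF mice did. The gene Tra2b, a splicing regulator, tracked place: at 12 h it was 7.76 ± 0.29 (SD, n = 4) in DMF mice of places 1 to 4 and 6.25 ± 0.52 (n = 4) in those of places 9 to 12. Among MEF mice the first 4 places averaged 8.10 ± 0.19 (n = 4), and places 5 to 8 averaged 7.51 ± 0.32 (n = 4). What place stands for is not given in the sources used here, and its part in the results was not tested beyond the fits with place given below.

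Over both times, 263 of 17097 genes (1.54 percent) differed between the compounds by limma's moderated test with Benjamini-Hochberg adjustment (adjusted p, FDR, below 0.05, "called" from here on). Of these, 199 were higher with DMF (1.16 percent of the genes tested) and 64 lower (0.374 percent), and 243 had a mean level above the median of all genes, 6.19 log2. Differences were small: the median size among called genes was 0.20 log2, the largest 0.71, and 0 exceeded 2-fold. The median difference over all genes was 0.00. With place as a covariate 133 genes were called (102 higher, 31 lower), and 122 of the 263 were among them. Within places 1 to 4, with 4 arrays per group, 1 gene was called, 1113 had an unadjusted p under 0.05, and each of the 263 kept its sign; these 16 arrays are part of the 32. Leaving out 1 of the 32 arrays moved the count by over 1.5 times in 7 cases. Without 6 h DMF replicates 61 or 62 it was 149 or 121, without 12 h DMF replicates 10, 11, 12 or 13 it was 174, 174, 149 or 451, and without 12 h MEF replicate 26 it was 134. Without the 2 arrays that stood apart, 197 of the 263 were still called.

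**Figure D1:**
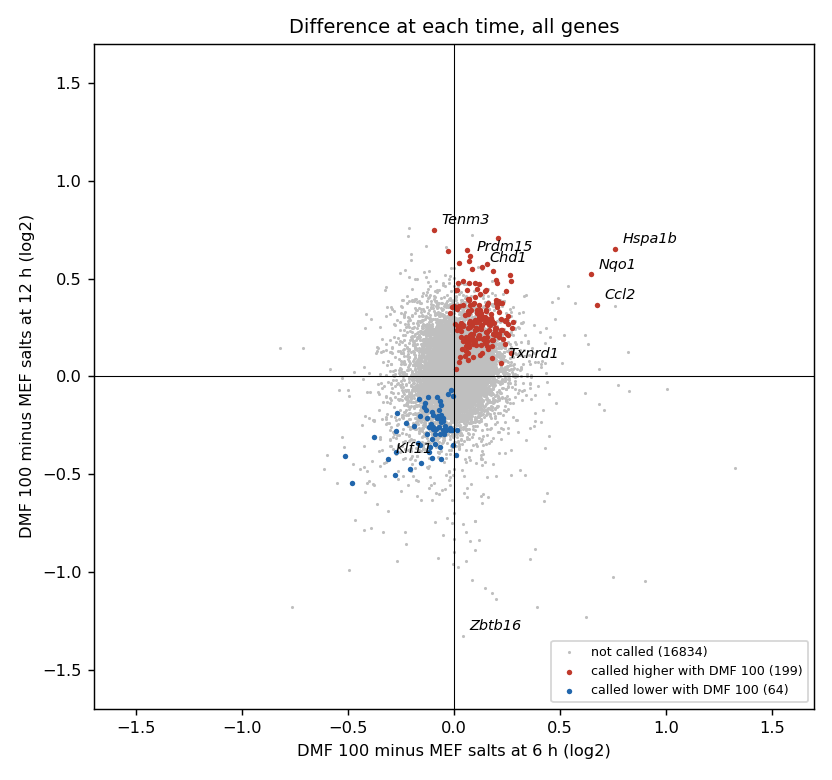
Difference between DMF 100 mg/kg and MEF salts (log2) at 6 h (horizontal) against 12 h (vertical), 1 point per gene, 17097 genes, with the 263 genes called over both times in colour (199 higher with DMF, 64 lower). Most called genes lie farther from 0 along the 12 h axis than along the 6 h axis, and Hspa1b, Nqo1 and Ccl2 are far from 0 at both times.

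Few NRF2 target genes separated DMF from MEF in the node. Of 28 measured members, 3 were called higher with DMF over both times (Nqo1, Blvrb and Txnrd1) and 0 lower, beside 1.16 and 0.374 percent of all genes. The median of the list was 0.02 log2, against 0.00 for all genes, with members from -0.60 to 0.58. The quinone reductase gene Nqo1 had the largest called difference of the list.

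Nqo1 at 6 h ranged from 7.24 to 8.62 log2 (median 8.08) with DMF and from 7.04 to 7.83 (median 7.34) with MEF, beside 6.33 to 7.18 (median 6.50) with vehicle. At 12 h it ranged from 6.98 to 7.76 (median 7.13) with DMF, 6.27 to 7.04 (median 6.74) with MEF and 5.97 to 6.91 (median 6.46) with vehicle. DMF arrays were the higher at both times, with overlap between the groups. The difference over both times was 0.58 ± 0.11 (SE), a 1.5-fold difference (limma, FDR = 0.00186), with 0.65 ± 0.16 at 6 h (FDR = 0.321) and 0.52 ± 0.16 at 12 h (FDR = 0.0397). The 12 h call was kept in 24 of 32 fits with 1 array left out, and lost with place as a covariate (0.50, FDR = 0.0587) and without the 2 arrays that stood apart (0.53, FDR = 0.0546). Against vehicle, Nqo1 was higher by 1.46 with DMF and by 0.81 with MEF at 6 h, both called, and by 0.79 (called) and 0.27 (not called) at 12 h.

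Txnrd1, which encodes cytosolic thioredoxin reductase, was called at 6 h. Its level there was 10.95 to 11.28 (median 11.15) with DMF, 10.84 to 11.02 (median 10.90) with MEF and 10.67 to 10.92 (median 10.83) with vehicle, so that the DMF and MEF ranges overlapped only between 10.95 and 11.02. The 6 h difference was 0.22 ± 0.04 (FDR = 0.00525), the 12 h difference 0.07 ± 0.04 (FDR = 0.396), and that over both times 0.14 ± 0.03 (FDR = 0.00245). Blvrb, which encodes biliverdin reductase B of heme breakdown, was called at 12 h. It lay at 8.77 to 9.29 (median 8.97) with DMF and 8.38 to 8.89 (median 8.67) with MEF, the latter beside vehicle at 8.35 to 8.79 (median 8.69). The difference in Blvrb was 0.36 ± 0.08 at 12 h (FDR = 0.0052), 0.20 ± 0.08 at 6 h (FDR = 0.95) and 0.28 ± 0.06 over both times (FDR = 0.00565). For the mean of both times, these 3 genes stayed called in each of the 32 fits with 1 array left out and with place as a covariate. At 6 h alone Txnrd1 was called in 31 of the 32.

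**Figure D2:**
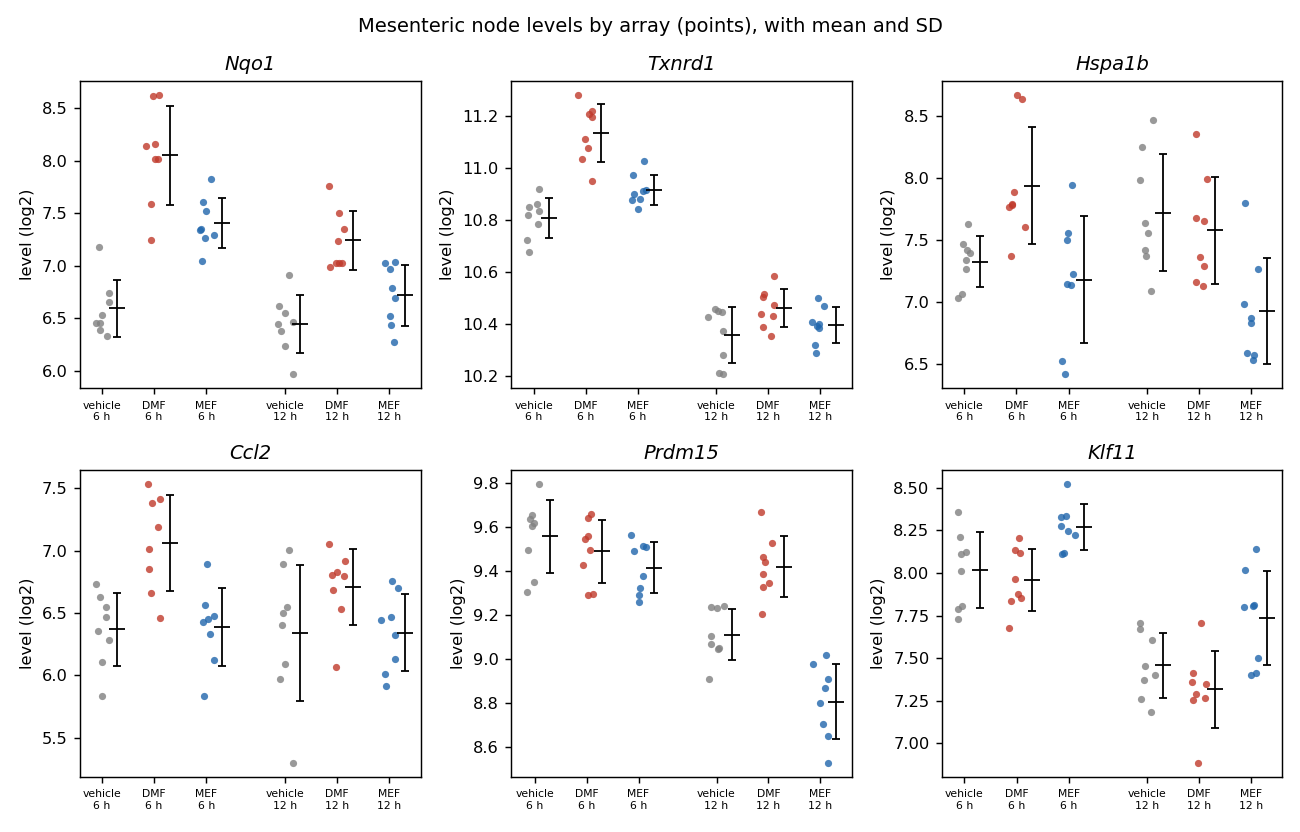
Levels (log2, vertical) of 6 genes on each array of the vehicle (grey), DMF 100 mg/kg (red) and MEF salts (blue) groups at 6 h and 12 h, 8 arrays per group, with the mean and SD beside the points. Nqo1 is higher with DMF than with MEF at both times with overlapping ranges, Txnrd1 mainly at 6 h, and the Prdm15 groups do not overlap at 12 h.

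The promoters of Nqo1 and Txnrd1 are shown because they are the NRF2 targets with the lowest adjusted p here. They were taken from RefSeq (GRCm38.p6), from 190 bases before to 30 bases after the annotated start. Capitals mark a match to the core of the antioxidant response element, TGACNNNGC, searched on both strands. The Nqo1 stretch is chr8:107403176-107403395, minus strand, and that of Txnrd1 is chr10:82859016-82859235, plus strand, 1 of 3 annotated windows and the only one with a match.
Nqo1: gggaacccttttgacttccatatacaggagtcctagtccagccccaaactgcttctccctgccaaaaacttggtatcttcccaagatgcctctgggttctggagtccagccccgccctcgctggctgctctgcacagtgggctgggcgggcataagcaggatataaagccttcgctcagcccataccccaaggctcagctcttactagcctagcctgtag
Txnrd1: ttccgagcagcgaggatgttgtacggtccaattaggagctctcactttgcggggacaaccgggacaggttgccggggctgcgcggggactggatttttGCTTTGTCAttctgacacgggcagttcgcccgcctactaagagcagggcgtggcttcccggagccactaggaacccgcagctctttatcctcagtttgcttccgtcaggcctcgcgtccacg
The Txnrd1 match begins 92 bases before the start and lies on the other strand, reading GCTTTGTCA as printed. The whole window of Nqo1 held 0 matches, and bases outside that window were not searched. Of all 32851 windows, 12.4 percent held this core. Of 22 list members with a window, 7 held it (Gclm, Me1, Pgd, Prdx1, Srxn1, Txnrd1 and Ugdh), and of these Txnrd1 was called. A match is a run of letters and was not tested for binding.

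Other NRF2 targets did not separate the compounds. Hmox1, for heme oxygenase 1, differed by 0.15 ± 0.09 (95% interval -0.03 to 0.33, FDR = 0.471), and the iron exporter gene Slc40a1 by 0.18 ± 0.09 (0.00 to 0.36, FDR = 0.364). Gstm1, a glutathione transferase gene, differed by 0.10 (-0.01 to 0.22), and Srxn1, for sulfiredoxin, by 0.03 (-0.11 to 0.17). For the subunits of glutamate-cysteine ligase, which makes glutathione, differences were -0.09 (-0.24 to 0.06) in Gclc and -0.02 (-0.14 to 0.10) in Gclm. The oxidase gene Aox1 differed by 0.01 (-0.30 to 0.33), Osgin1 by 0.02 (-0.12 to 0.17), the carbonyl reductase gene Cbr3 by 0.12 (-0.07 to 0.31) and the aldo-keto reductase gene Akr1b8 by -0.11 (-0.24 to 0.02). None of these 10 was called at 6 h or at 12 h. Ftl1, the ferritin light chain gene, was called at 12 h by 0.11 ± 0.04 (FDR = 0.0478), a call kept in 15 of 32 fits with 1 array left out and lost with place as a covariate (0.09, FDR = 0.103) and without the 2 arrays that stood apart (FDR = 0.0669).

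Against vehicle, few members of the list were called, but they made up most of the genes called at 6 h. At 6 h, DMF had 3 of 28 called higher (Nqo1, Txnrd1 and Prdx1) and MEF 1 (Nqo1), beside 4 and 1 genes of all 17097 (0.0234 and 0.00585 percent). At 12 h, DMF had 4 (Nqo1, Gstm1, Prdx1 and Blvrb) and MEF 1 (Prdx1), beside 14 and 103 of all genes (0.0819 and 0.602 percent). Both comparisons use the same vehicle arrays, which share their places with MEF arrays but only in part with DMF arrays.

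Of 10 measured heat shock genes, 3 were called higher over both times (Hspa1b, Hsph1 and Chordc1) and 0 lower, beside 1.16 and 0.374 percent of all genes. All 10 differences were above 0, from 0.01 to 0.71, with a median of 0.11. Such a shift was not particular to this list: of 14 cell cycle genes 13 were above 0, with a median of 0.10 and 0 called. Without the 2 arrays that stood apart the medians were 0.09 for heat shock and 0.16 for cell cycle genes. At 12 h 2 heat shock genes were called higher (Hsph1 and Chordc1), beside 3.17 percent of all genes. Against vehicle, 0 of the 10 were called with DMF at 6 h or 12 h (medians 0.08 and 0.02), beside 0.0234 and 0.0819 percent of all genes. With MEF 0 were called at 6 h (median -0.05), beside 0.00585 percent. At 12 h Hspa1b was called lower with MEF (list median -0.16), beside 0.491 percent of all genes called lower.

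Hspa1b encodes an inducible HSP70 chaperone, and its probe set may also take up RNA of the near-identical Hspa1a, so its level is uncertain. At 6 h it ranged from 7.37 to 8.67 (median 7.79) with DMF, 6.42 to 7.95 (median 7.18) with MEF and 7.03 to 7.63 (median 7.37) with vehicle. At 12 h it ranged from 7.13 to 8.36 (median 7.51) with DMF, 6.53 to 7.80 (median 6.85) with MEF and 7.08 to 8.47 (median 7.60) with vehicle. The groups overlapped at both times. The difference over both times was 0.71 ± 0.15, or 1.63-fold (FDR = 0.00565), the largest among called genes by 1 probe set per gene. With the mean of its 3 probe sets it was 0.41 (FDR = 0.00474), below Nqo1 and Ccl2. It was 0.76 ± 0.21 at 6 h (FDR = 0.621) and 0.65 ± 0.21 at 12 h (FDR = 0.0575), where MEF minus vehicle was -0.80 (called) and DMF minus vehicle -0.14 (not called).

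Hsph1, for the HSP110 nucleotide exchange factor of HSP70, ranged at 12 h from 12.04 to 12.51 (median 12.32) with DMF, 11.76 to 12.22 (median 12.02) with MEF and 11.87 to 12.39 (median 12.17) with vehicle. Chordc1, for an HSP90-binding co-chaperone, ranged from 10.25 to 10.59 (median 10.43), 9.99 to 10.32 (median 10.17) and 10.17 to 10.47 (median 10.29) in the same order. In both genes vehicle lay between the compounds, with overlap. Over both times the differences were 0.25 ± 0.05 for Hsph1 (FDR = 0.0014) and 0.22 ± 0.04 for Chordc1 (FDR = 0.000412). Dnajb1, for an HSP40 partner of HSP70, differed by 0.04 (95% interval -0.09 to 0.17, FDR = 0.917). At 179.2 mg/kg DMF, means were 7.23 at 12 h for Hspa1b, 11.88 for Hsph1 and 10.20 for Chordc1, below those at 100 mg/kg (7.58, 12.30 and 10.44). In the set titled DMF100 with MEF79_2 they were 6.91, 11.78 and 10.03, beside 6.93, 12.01 and 10.16 with MEF alone. Naive mice, present at 12 h only, had the lowest of these means, at 6.60, 11.50 and 9.99. The naive and 179.2 mg/kg mice held places 5 to 12, and the combination, like DMF 100 mg/kg, places 1 to 4 and 9 to 12. The part of place in these levels was not tested. Over both times the 3 called chaperone genes stayed called in each of 32 fits with 1 array left out and with place as a covariate.

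Since these 3 were called in the same direction, their promoters are shown in the same form, with capitals for a match to the heat shock element on either strand, searched as the 3 units GAA, TTC and GAA in a row with any 2 bases between neighbours. The stretches are Hspa1b at chr17:34959209-34959428, minus strand, Hsph1 at chr5:149636286-149636505, minus strand, and Chordc1 at chr9:18292077-18292296, plus strand.
Hspa1b: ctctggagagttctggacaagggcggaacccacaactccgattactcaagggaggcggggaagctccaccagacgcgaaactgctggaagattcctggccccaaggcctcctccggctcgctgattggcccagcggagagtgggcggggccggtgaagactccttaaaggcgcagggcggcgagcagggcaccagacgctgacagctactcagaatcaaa
Hsph1: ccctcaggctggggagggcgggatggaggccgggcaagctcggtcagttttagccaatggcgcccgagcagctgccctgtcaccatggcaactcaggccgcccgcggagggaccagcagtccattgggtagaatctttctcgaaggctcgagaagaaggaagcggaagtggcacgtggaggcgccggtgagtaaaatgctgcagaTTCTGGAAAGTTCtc
Chordc1: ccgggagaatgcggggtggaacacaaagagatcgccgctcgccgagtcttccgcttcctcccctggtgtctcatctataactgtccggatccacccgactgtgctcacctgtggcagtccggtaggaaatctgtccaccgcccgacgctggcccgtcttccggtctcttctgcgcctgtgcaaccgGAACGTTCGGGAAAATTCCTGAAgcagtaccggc
The Hsph1 match begins 15 bases after the start, on the other strand, and both of its annotated windows held it. In Chordc1, 3 overlapping matches begin 4 bases before the start. The whole window of Hspa1b held 0 matches to these letters, and bases outside that window were not searched. Of all windows 0.603 percent held the element, and of 8 list members with a window 3 did (Chordc1, Hspe1 and Hsph1).

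Beyond these groups, the called genes highest with DMF included a chemokine and several nuclear proteins. Ccl2, the chemokine that draws monocytes, ranged at 6 h from 6.46 to 7.54 (median 7.10) with DMF, 5.83 to 6.90 (median 6.44) with MEF and 5.83 to 6.74 (median 6.41) with vehicle. At 12 h its ranges were 6.07 to 7.05 (median 6.80), 5.92 to 6.76 (median 6.38) and 5.30 to 7.01 (median 6.45). MEF and vehicle arrays were alike in median, DMF arrays lay higher, and the ranges overlapped. The difference was 0.52 ± 0.12 over both times (FDR = 0.0118), 0.68 ± 0.17 at 6 h (FDR = 0.322) and 0.37 ± 0.17 at 12 h (FDR = 0.238). It was the 1 called member of 13 measured inflammatory NF-kB targets, whose median was 0.02, beside 1.16 percent of all genes called higher. Ackr2, for the decoy receptor that takes up inflammatory chemokines, was higher by 0.38 ± 0.11 (FDR = 0.0454), but not with place as a covariate (0.31, FDR = 0.135), and in 15 of 32 fits with 1 array left out. With the mean of all its probe sets Ackr2 was 0.16 (FDR = 0.0496).

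Prdm15, which encodes a zinc finger transcription factor, had the lowest adjusted p of the 20 genes at the ends of the order. Its level at 12 h was 9.21 to 9.67 (median 9.41) with DMF, 8.53 to 9.02 (median 8.84) with MEF and 8.91 to 9.24 (median 9.09) with vehicle, so the DMF and MEF arrays did not overlap. At 6 h the ranges were 9.29 to 9.66 (median 9.52) with DMF and 9.26 to 9.56 (median 9.43) with MEF, which overlapped almost fully. The difference was 0.61 ± 0.08 at 12 h (FDR = 5.92e-07), 0.07 ± 0.08 at 6 h and 0.34 ± 0.06 over both times (FDR = 0.000269). Chd1, for a chromatin remodeler of active genes, did not overlap at 12 h either, with 8.07 to 8.73 (median 8.39) for DMF and 7.55 to 8.0 (median 7.91) for MEF, beside vehicle at 8.11 to 8.55 (median 8.29). Its difference was 0.56 ± 0.11 at 12 h (FDR = 0.00105) and 0.35 ± 0.08 over both times (FDR = 0.0106). With the mean of its 4 probe sets in place of the brightest, the Chd1 difference was 0.08 (FDR = 0.402).

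Other genes with the highest called differences were the RNA-binding protein gene Rbm12b2 at 0.39 ± 0.09 (FDR = 0.0119), Gpatch8 at 0.35 ± 0.09 (FDR = 0.0203), Polh, for the DNA polymerase that bypasses ultraviolet lesions, at 0.34 ± 0.07 (FDR = 0.00565), and the histone H3 gene H3c14 at 0.34 ± 0.09 (FDR = 0.0241). In Gpatch8 the difference was 0.65 ± 0.12 at 12 h (FDR = 0.000616) and 0.06 ± 0.12 at 6 h. Histone genes of this family are near copies of each other, and probe sets may share their RNA. With the mean of all probe sets Rbm12b2 was 0.23 (FDR = 0.0347) and Gpatch8 0.23 (FDR = 0.0323). H3c14 was not called without the 2 arrays that stood apart (0.31, FDR = 0.0533). Polh and H3c14 were not called with the mean of all probe sets (0.20, FDR = 0.141, and 0.21, FDR = 0.063).

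The called genes lowest with DMF began with Klf11, for a Krüppel-like transcriptional repressor. At 6 h Klf11 ranged from 7.68 to 8.20 (median 7.92) with DMF, 8.11 to 8.53 (median 8.26) with MEF and 7.73 to 8.36 (median 8.06) with vehicle. At 12 h it ranged from 6.89 to 7.71 (median 7.32), 7.40 to 8.14 (median 7.80) and 7.19 to 7.71 (median 7.42) in the same order. MEF arrays were the higher at both times, with overlap. The difference was -0.37 ± 0.07 over both times (FDR = 0.0014), -0.31 ± 0.09 at 6 h and -0.42 ± 0.09 at 12 h (FDR = 0.00364). It was called in each of the 32 fits with 1 array left out.

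Zxdc, a zinc finger gene, was lower with DMF by -0.26 ± 0.05 (FDR = 0.00532). At 12 h it lay at 7.26 to 7.81 (median 7.50) with DMF and 7.79 to 8.16 (median 7.92) with MEF, with vehicle at 7.33 to 7.74 (median 7.59), so that DMF and MEF overlapped only between 7.79 and 7.81. Siah1a, for a ubiquitin ligase, was lower by -0.25 ± 0.06 (FDR = 0.0119), and at 12 h lay at 7.36 to 7.99 with DMF and 7.96 to 8.37 with MEF. Tcp11l2 was lower by -0.24 ± 0.06 (FDR = 0.024). Zxdc was not called with the mean of its 3 probe sets (-0.12, FDR = 0.0867).

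Another 6 of the 10 lowest lost their call with place as a covariate. They were the deubiquitinase gene Mindy2 (-0.30 ± 0.08, with the covariate -0.20, FDR = 0.0798), the zinc finger gene Zmym3 (-0.28 ± 0.07, then -0.20, FDR = 0.0884) and Hp1bp3, for a heterochromatin protein 1 partner (-0.26 ± 0.07, then -0.17, FDR = 0.0635). The kinase gene Pim3 (-0.24 ± 0.06, then -0.21, FDR = 0.0728), the clock repressor gene Cry2 (-0.23 ± 0.07, then -0.24, FDR = 0.0673) and Inafm1 (-0.22 ± 0.06, then -0.18, FDR = 0.0771) were the rest. With the mean of all probe sets Mindy2 was -0.12 (FDR = 0.123), Zmym3 -0.14 (FDR = 0.0225) and Inafm1 -0.12 (FDR = 0.102). Cry2 was called in 7 of 32 fits with 1 array left out, Hp1bp3 in 18, Mindy2 in 20 and Zmym3 in 24.

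**Figure D3:**
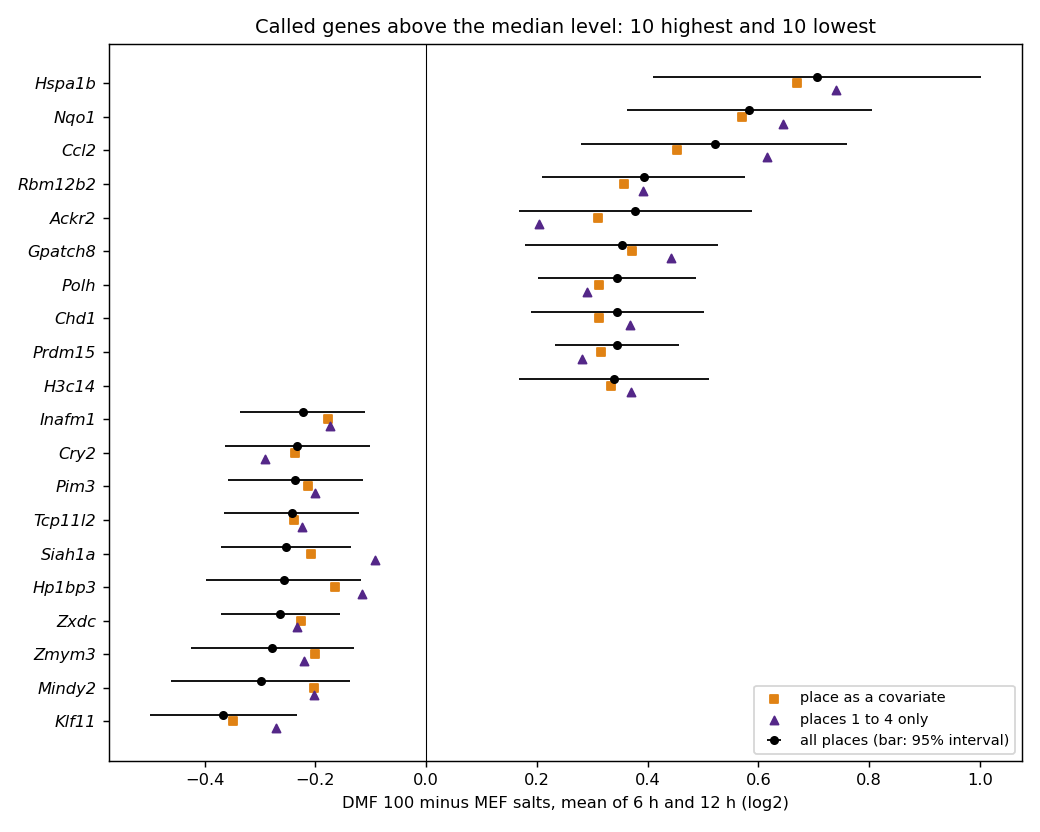
Difference between DMF 100 mg/kg and MEF salts (log2, mean of 6 h and 12 h) for the 10 highest and 10 lowest called genes above the median level, as fitted (black, with 95% interval), with place as a covariate (orange) and within places 1 to 4 only (purple). Each of the 20 genes keeps its direction in the 3 fits, with Siah1a at -0.09 and Hp1bp3 at -0.12 within places 1 to 4.

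The position of both groups against vehicle is given side by side. The called genes were chosen by the difference between these same DMF and MEF arrays. Medians on opposite sides of vehicle, and calls against vehicle among these genes, follow in part from that choice. The 199 genes called higher had, at 12 h, a median of 0.11 for DMF minus vehicle and -0.16 for MEF minus vehicle, and at 6 h 0.05 and -0.07. Of these 199, 4 were called for DMF against vehicle at 12 h and 31 for MEF. For the 64 called lower the medians at 12 h were -0.14 and 0.10, with 0 called for DMF and 5 for MEF. In all, 103 genes were called for MEF against vehicle at 12 h (19 higher, or 0.111 percent, and 84 lower, or 0.491 percent) and 14 for DMF (10 higher, or 0.0585 percent, and 4 lower, or 0.0234 percent). For Chd1 at 12 h the difference from vehicle was 0.09 with DMF and -0.47 with MEF. For Polh it was 0.09 and -0.41, for Rbm12b2 0.02 and -0.50, for H3c14 -0.04 and -0.48 and for Prdm15 0.31 and -0.30. In these 5 genes the MEF value was called and the DMF value was not. For Prdm15 both values were alike in size, and p-values were adjusted within each comparison, so the calls do not set them apart. The vehicle arrays enter both values of each pair. Vehicle mice held the same places as MEF mice, whereas DMF mice shared only part of them. The part of place in these comparisons was not tested.

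The higher DMF dose and the combination are set beside these genes. Their arrays did not enter the difference between DMF and MEF, but did enter the estimate of spread and the choice of probe sets. At 12 h Prdm15 averaged 9.60 with 179.2 mg/kg DMF, 9.42 with 100 mg/kg, 9.11 with vehicle, 8.95 with DMF and MEF together and 8.81 with MEF alone. Chd1 averaged 8.53, 8.41, 8.32, 7.83 and 7.85 in that order, the combination lying by MEF. Untreated (naive) mice averaged 8.46 for Chd1 at 12 h, between the DMF doses. Naive and 179.2 mg/kg mice held places 5 to 12, whose part in this order was not tested. Over the 199 genes called higher the median at 12 h was 0.15 above vehicle with 179.2 mg/kg DMF and -0.10 with the combination. For Nqo1 at 12 h the order was another: 7.88 with 179.2 mg/kg, 7.63 with the combination, 7.24 with 100 mg/kg, 6.72 with MEF and 6.45 with vehicle.

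Other gene lists held few called members over both times, where 1.16 percent of all genes were called higher and 0.374 percent lower. Of 33 lists, 6 had any, and the 27 others had medians from -0.36 to 0.10. The lowest was that of the pancreatic acinar markers, which was 0.00 without the 2 arrays that stood apart, and the next that of the adipocyte markers, -0.27 with and -0.47 without them. Of 7 measured p53 targets, Ccng1, for cyclin G1, was called higher (0.17 ± 0.04, FDR = 0.0273; with place as a covariate 0.13, FDR = 0.0697; with the mean of its 3 probe sets 0.04, FDR = 0.53). Of 11 splicing regulators, Rbm39 was called higher (0.09 ± 0.02, FDR = 0.0185) and Srsf6 lower (-0.15 ± 0.03, FDR = 0.00581). Rbm39 has 9 probe sets, and their mean gave -0.05 (FDR = 0.77), while the 4 of Srsf6 gave -0.04 (FDR = 0.649). Tra2b had a difference of -0.57 ± 0.24 (FDR = 0.249), which was -0.20 with place as a covariate and -0.03 within places 1 to 4.

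Zinc response and immediate early genes gave 0 called of 5 and of 13, beside 1.54 percent of all genes. At that share, lists of this size would mostly hold no call. Zinc is 1 of the counter-ions of the MEF salts, and its part was not tested. Mt1, a metallothionein gene, differed by 0.05 (95% interval -0.15 to 0.24), and the zinc exporter gene Slc30a1 by -0.04 (-0.12 to 0.03). Fos differed by -0.09 (-0.37 to 0.18) and Egr1 by 0.02 (-0.06 to 0.09). Hcar2, the receptor for monomethyl fumarate, lay at 2.15 to 2.42 at 6 h and 2.66 to 3.21 at 12 h over both groups, near the floor, and so did Cyp1a1, the AhR target, at 2.12 to 2.42. At such levels a difference was not detectable.

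**Figure D4:**
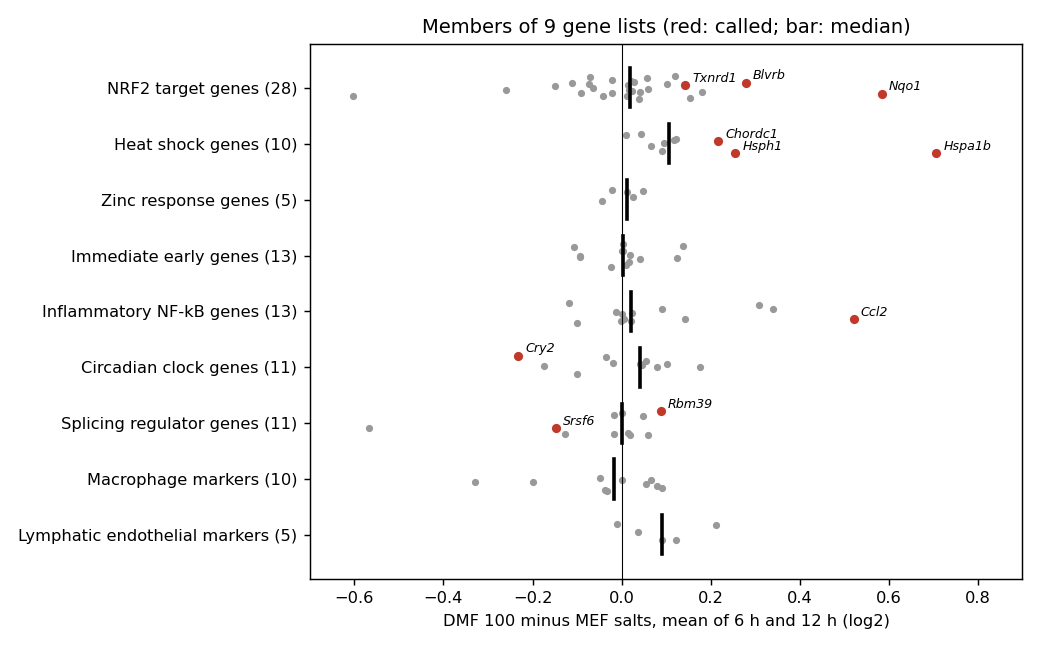
Difference between DMF 100 mg/kg and MEF salts (log2, mean of 6 h and 12 h) for each measured member of 9 gene lists (1 point per gene, number measured in brackets), with called genes in red and a bar at each median. All 10 heat shock genes lie above 0 with a median of 0.11, whereas the 28 NRF2 targets spread around a median of 0.02. The cell cycle genes, with 13 of 14 above 0 and a median of 0.10, are not drawn.

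At 6 h alone 1 gene was called, Txnrd1 (0.00585 percent of the genes tested), while 897 had an unadjusted p under 0.05; the call was lost without DMF replicate 64. At 12 h 738 genes were called (4.32 percent), 542 higher with DMF (3.17 percent) and 196 lower (1.15 percent), and 3014 had an unadjusted p under 0.05. With place as a covariate 661 were called at 12 h and within places 1 to 4, 27. Without 12 h DMF replicates 12, 13 or 14 the count was 472, 1110 or 404. Of the 738, 493 (66.8 percent) had the same sign at 6 h in other mice, beside 55.3 percent of all genes with a difference at both times. With the 6 h difference taken within places 1 to 4, 41.1 percent of the 738 had the same sign, beside 48.6 percent of all genes.

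The highest called differences at 12 h above the median level were Cldn11, for a tight junction claudin, at 0.76 ± 0.15 (FDR = 0.00105), Tenm3, for a teneurin adhesion protein, at 0.75 ± 0.13 (FDR = 0.000178), and Gzma, for granzyme A of cytotoxic lymphocytes, at 0.72 ± 0.22 (FDR = 0.0422). Cldn11 lay at 7.42 to 8.29 (median 7.56) with DMF, 6.18 to 7.33 (median 6.97) with MEF and 7.02 to 7.45 (median 7.43) with vehicle, and the DMF and MEF arrays did not overlap. Gzma was 1 called of 8 NK cell markers, beside 3.17 percent of all genes called higher at 12 h. Its call was lost with place as a covariate (0.66, FDR = 0.073). The lowest were Mmd at -0.51 ± 0.15 (FDR = 0.0287), Mindy2 at -0.44 ± 0.11 (FDR = 0.0141) and the prefoldin gene Pfdn2 at -0.44 ± 0.10 (FDR = 0.00558).

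Among list members at 12 h, the transcriptional regulator gene Zbtb16, a glucocorticoid response gene, was lower with DMF by -1.33 ± 0.37 (FDR = 0.0243). It lay at 2.84 to 3.33 (median 3.15) with DMF, 2.99 to 5.51 (median 4.48) with MEF and 2.98 to 4.71 (median 3.45) with vehicle, near the floor in the DMF group, so that the size of the difference there is uncertain. The other calls were Tiparp, an AhR target (-0.24 ± 0.07, FDR = 0.0317), Tnfaip3, the brake on NF-kB (-0.20 ± 0.06, FDR = 0.0494, in 9 of 32 fits with 1 array left out, and FDR = 0.0678 with place as a covariate), and Ndufa9, of respiratory complex I (-0.17 ± 0.05, FDR = 0.0298, and 0.0603 with place as a covariate). Each was the single call among 9, 5, 13 and 11 measured members in turn, beside 1.15 percent of all genes called lower at 12 h. Levels of Zbtb16 at 6 h were 3.50 to 6.47 with DMF and 3.62 to 5.04 with MEF, with a difference of 0.04 ± 0.37.

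Lymphatic and macrophage markers had medians below 0 at 6 h and above 0 at 12 h. Medians of dendritic cell (-0.02, then 0.195), reticular stroma (-0.07, 0.06), blood endothelial (-0.05, 0.07) and NK cell markers (-0.03, 0.07) changed sign likewise. Those of B cell, T cell and plasma cell markers were above 0 at both times. Of 5 lymphatic endothelial markers, 0 were above 0 at 6 h (median -0.20) and 5 at 12 h (median 0.27), where Flt4, the lymphatic VEGF-C receptor gene, was called (0.63 ± 0.15, FDR = 0.00558). Of 10 macrophage markers, 0 were above 0 at 6 h (median -0.17) and 7 at 12 h (median 0.15), where the complement gene C1qc was called (0.31 ± 0.09, FDR = 0.0418, and 0.0625 with place as a covariate). Of all genes 3.17 percent were called higher at 12 h. The C1qc call was kept in 21 of 32 fits with 1 array left out and lost without the 2 arrays that stood apart (FDR = 0.0583). In the test between times, 0 markers of either list were called, although Flt4 was with place as a covariate (0.92, FDR = 0.0227). An unadjusted p under 0.05 was found for 4 of 5 and 7 of 10, beside 1551 of all 17097 genes. Markers of 1 cell type can move together, so these counts are not of independent genes. The mean over the lymphatic markers was 9.21 to 9.78 with DMF and 9.46 to 9.85 with MEF at 6 h, and 8.98 to 9.46 and 8.37 to 9.23 at 12 h. The mean over 6 adipocyte markers at 12 h was 8.35 to 9.30 with DMF and 8.23 to 10.52 with MEF. The part of these cell types in the 12 h calls was not tested.

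In the test of the difference itself, DMF minus MEF at 12 h minus the same at 6 h, 3 genes were called (0.0175 percent), all higher at 12 h, and 1551 had an unadjusted p under 0.05. They were Prdm15 (0.54, FDR = 0.044), Pxn, for the focal adhesion protein paxillin (0.45, FDR = 0.044), and a clone-named gene that is not named here. Pxn at 12 h lay at 9.33 to 9.56 (median 9.41) with DMF and 8.88 to 9.36 (median 9.03) with MEF, and at 6 h at 9.64 to 9.85 and 9.73 to 9.98, with overlap at both times. Prdm15 and Pxn were called in 15 of 32 fits with 1 array left out, and the count of called genes was 0 in 17 of these fits and reached 48 without 12 h DMF replicate 13. Without the 2 arrays that stood apart Prdm15 was not called (0.55, FDR = 0.0586) and Pxn was (0.48, FDR = 0.0464). With place as a covariate 71 genes were called. Flt4 (0.83, FDR = 0.0705), Tenm3 (0.85, FDR = 0.0573) and Cldn11 (0.98, FDR = 0.0573) were not called. With place as a covariate these 3 were called (FDR = 0.0227, 0.0308 and 0.0224), as were Pfdn2 (-0.64, FDR = 0.0224) and Tiparp (-0.41, FDR = 0.024).

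The same contrast was tested against the inguinal node (ILN), which drains skin, and the jejunum, with 27 and 24 arrays of the same treatments. The jejunum array of 12 h DMF replicate 15 stood apart, with a mean of 6.27 log2 over Hoxb6 and Hoxb9 against 3.02 to 3.77 in the rest of its group, as did 3 vehicle arrays at 12 h. In the ILN itself 1 gene was called for DMF against MEF (0.00585 percent), and in the test of MLN minus ILN 0 were called by limma, with 1052 at an unadjusted p under 0.05. With the animal number as a block, pairing the organs of 1 mouse, 0 were called and 1483 had an unadjusted p under 0.05. For Nqo1 the ILN difference was 0.46 (FDR = 0.0943) and the test between nodes gave 0.12 (FDR = 0.992).

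In the jejunum 620 genes were called for DMF against MEF (3.63 percent), and 58 differed between MLN and jejunum (0.339 percent), 42 with the higher signed difference in the MLN and 16 with the lower. Without the jejunum arrays that stood apart 45 did. With the animal number as a block 8 did (3 and 5). Of the 28 NRF2 targets, 9 were called higher with DMF in the jejunum (median 0.15), and 5 of these differed from the MLN: Cbr3, Akr1b8, Gclc, Abcc1 and Ugdh. Cbr3 differed by 1.96 in the jejunum and 0.12 in the MLN (MLN minus jejunum -1.84 ± 0.26, FDR = 4.56e-07; with the block -1.91, FDR = 6.9e-05). Akr1b8 differed by 1.64 and -0.11 (-1.75 ± 0.20, FDR = 2.52e-10; with the block -1.76, FDR = 6.01e-07), and Abcc1, for a glutathione conjugate exporter, by 0.37 and -0.07 (-0.43 ± 0.07, FDR = 0.000117; with the block -0.46, FDR = 0.000966). Nqo1 differed by 0.65 in the jejunum and 0.58 in the MLN, and the test of that gave -0.06 (FDR = 0.989).

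The remaining named genes of the jejunum comparison lost their call with the block, and Gclc (FDR = 0.0649), Ccdc88c (FDR = 0.0542) and Fam168a (FDR = 0.0549) also without the jejunum arrays that stood apart. Gclc differed by 0.43 in the jejunum and -0.09 in the MLN (-0.52, FDR = 0.0422, with the block 0.0984), Sgce, for a sarcoglycan, by 0.30 and -0.32 (-0.62, FDR = 0.0335, then 0.0583), and Dph7, of diphthamide synthesis, by 0.33 and -0.12 (-0.44, FDR = 0.0343, then 0.0984). Pdp2, for a phosphatase of pyruvate dehydrogenase, differed by -0.38 and 0.28 (0.65, FDR = 0.0144, then 0.0583), Ccdc88c by -0.40 and 0.20 (0.60, FDR = 0.0371, then 0.0937), and Fam168a by -0.47 and 0.04 (0.50, FDR = 0.0465, then 0.127).

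**Figure D5:**
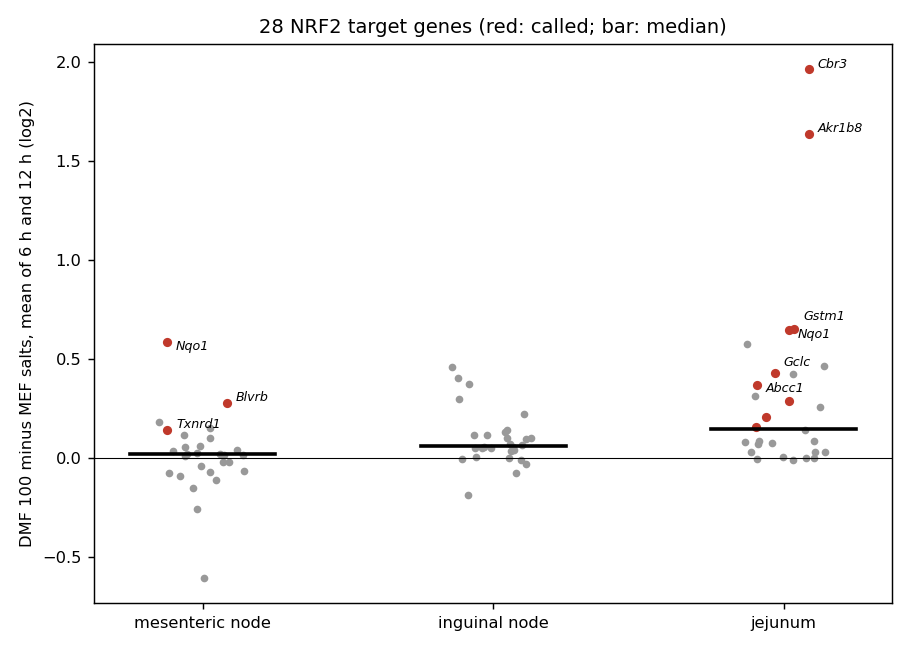
Difference between DMF 100 mg/kg and MEF salts (log2, mean of 6 h and 12 h) for 28 NRF2 target genes in the mesenteric node, the inguinal node and the jejunum, 1 point per gene, with called genes in red and a bar at the median. In the mesenteric node 3 are called and the median is 0.02; in the jejunum 9 are called, with Cbr3 at 1.96 and Akr1b8 at 1.64.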

How the data were processed

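Total RNA of each organ was measured on Affymetrix arrays. The authors deposited 1 log2 value per probe set and array. The submitters' processing notes name limma 3.4.5 within R 2.11.1, with GCRMA and RMA, in an order not given in the sources used here. Of 45141 probe sets, 28898 had 1 gene in GEO's platform annotation, 551 several and 15588 none. For each of 17097 genes the probe set with the highest mean over the 88 MLN arrays was taken. Of the table's columns, 313 belong to organs not used here. Arrays give no read depth, and their number limits the precision.

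With limma 3.58.1 in R 4.3.3, 1 mean per group was fitted over 11 groups of 8 MLN arrays (lmFit, eBayes), p-values were adjusted by Benjamini-Hochberg over all genes, and genes below 0.05 were called. The steps were tested on simulated data. Python 3.11.15 made the tables (pandas 2.3.3), and matplotlib 3.10.9 drew the figures. Named genes were the 10 highest and 10 lowest called genes above the median level over both times, up to 4 called members of each list, the 3 highest and 3 lowest called in each other comparison, and a list of genes named whatever their test; clone names were left out. The members, gene lists and tests were chosen with earlier results of these data known. Organs were paired by animal number, since 1 number marks 1 animal. Deviations from group means correlated at a median r of 0.226 over 73 pairs of MLN and ILN. For MLN and jejunum the median was 0.132 over 76 pairs. Arrays with the same number also share a place, so these correlations cannot show that they came from 1 animal. Alternatives changed the normalization, filters, variance model, samples, probe sets, place and array weights, and left out arrays.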

Additional observations from a re-analysis of the deposited data

Results flagged for a closer look

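Single arrays stood away from the rest of their group of 8 in 7 of 112 groups of named genes examined with Dixon's criterion, where chance gives about 1 in 20. Gpatch8 was 9.05 log2 in 6 h DMF replicate 60 and 9.84 in 12 h DMF replicate 14. Chd1 was 9.19 in 6 h DMF replicate 63 and 9.21 in 6 h MEF replicate 75. Zmym3 was 8.59 in 6 h MEF replicate 76 and 7.42 in 12 h MEF replicate 32. Pim3 was 8.70 in 6 h DMF replicate 60, the array that also stood apart in its adipocyte and erythroid markers.

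The difference between DMF and MEF was itself different at 12 h and 6 h for Prdm15 (0.54) and Pxn (0.45), by limma's test of that difference. Between organs, the signed difference in the MLN minus that in the jejunum was above 0 for Pdp2 (0.65), Ccdc88c (0.60) and Fam168a (0.50), in which DMF was lower than MEF in the jejunum. It was below 0 for Cbr3 (-1.84), Akr1b8 (-1.75), Sgce (-0.62), Gclc (-0.52), Dph7 (-0.44) and Abcc1 (-0.43). With the animal as a block, Cbr3, Akr1b8 and Abcc1 were called and the other 6 were not (FDR from 0.0583 to 0.127).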

How the results depend on the processing

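The count of 263 genes over both times became 152 with the mean of all probe sets, 133 with place as a covariate, 1 within places 1 to 4 and 821 with array weights. Further quantile normalization lowered the share of higher calls from 75.7 to 62.6 percent over both times, and from 73.4 to 58.2 percent at 12 h. The 1 call at 6 h became 0 by limma with further quantile normalization, with only the groups compared and within places 1 to 4 (884, 912 and 715 at an unadjusted p under 0.05), 269 with array weights and 2 without the 2 arrays that stood apart. At 12 h, 738 became 470 with the mean of all probe sets and 27 within places 1 to 4. The 3 calls between times became 15 with quantile normalization, 59 without dim genes, 10 without genes at the floor, 30 with only the groups compared, 0 with the mean of all probe sets (1442 unadjusted), 71 with place, 544 with array weights and 1 without the 2 arrays. Leaving out 1 array gave 121 to 451 over both times, 0 to 2 at 6 h, 404 to 1110 at 12 h and 0 to 48 between times. For MLN minus ILN, 0 became 1 without dim genes and 2 with place, and was 0 with the animal as a replicate block. For MLN minus jejunum, 58 became 29 without dim genes, 109 with place and 8 with the replicate block pairing organs of 1 animal. Of 28 named genes called over both times, 10 lost the call with the mean of all probe sets, 9 with place, 4 with only the groups compared, 4 without the 2 arrays, 2 with quantile normalization and 28 within places 1 to 4, a fit of 4 arrays per group. Rbm39 reversed with the mean of all probe sets (-0.047). Beyond fewer arrays or genes in a fit, the cause of these shifts was not tested.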
